A study of Mus musculus with 12 samples.

Results

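The guanylate-binding proteins (GBPs) are large interferon-inducible GTPases, and their mRNAs were followed in 12 RNA-seq libraries of mouse peritoneal macrophages (PMφs). Members were the 10 genes named Gbp2 to Gbp11, of which 9 had a row among the 43278 genes of the deposited table. Gbp10 was not analysed here. The PMφs were elicited with thioglycolate in wild-type C57BL/6J mice, and adherent cells were cultured before treatment. Control cells received neither agent, oxLDL cells were loaded with human medium oxidized LDL at 100 µg/ml for 24 h, LPS cells received ultrapure LPS at 10 ng/ml, and oxLDL+LPS cells were loaded with the same oxLDL dose before the same LPS dose. How long LPS was left on these cells is not given in the sources used here. Each group had 3 libraries. Per the methods, cells from male and female littermates were pooled in each experiment and divided into 4 groups. A replicate number is therefore taken here as 1 pool, so that libraries of different groups with the same number share their animals. The labels do not state this. The comparisons ask how oxLDL loading changes the transcriptome of PMφs before and after LPS.

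GBPs are made at low levels in resting macrophages and at high levels after exposure to interferons or bacterial products. Interferon-γ acts mainly on GAS elements in gene promoters, and interferons α and β act mainly on interferon-stimulated response elements (ISREs). LPS reaches these elements indirectly, through the interferon-β that macrophages release, and also activates NF-κB. The proteins assemble on membranes of bacteria and of vacuoles that hold pathogens, with help from a conjugation system shared with autophagy and from immunity-related GTPases (IRGs). In mice they promote the detection of cytosolic LPS by caspase-11, the product of Casp4. Some GBPs carry a lipid anchor added by prenylation enzymes.

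The family lies in 2 clusters of the GRCm38 genome. Gbp5 (chr3:142493978-142522344), Gbp7 (chr3:142530342-142550149), Gbp3 (chr3:142560026-142573209) and Gbp2 (chr3:142620602-142638008) are on the plus strand of chromosome 3. Gbp8 (chr5:105014150-105139540), Gbp9 (chr5:105077630-105139539), Gbp4 (chr5:105115767-105139586), Gbp6 (chr5:105270702-105293698) and Gbp11 (chr5:105323042-105346472) are on the minus strand of chromosome 5. The annotation used here calls Gbp11 a polymorphic pseudogene. The promoters of the chromosome 3 cluster are shown because only these members had a promoter sequence available. These 4 genes include the 3 with the highest levels after LPS. Each line holds the 250 bases before the RefSeq start (GRCm38.p6, plus strand, 5′ to 3′), with matches to 3 motifs in capitals: the ISRE (a pair of GAAA parted by any 2 bases), the GAS element (TTCNNNGAA) and the κB motif, each searched on both strands.
Gbp5, chr3:142496684-142496933: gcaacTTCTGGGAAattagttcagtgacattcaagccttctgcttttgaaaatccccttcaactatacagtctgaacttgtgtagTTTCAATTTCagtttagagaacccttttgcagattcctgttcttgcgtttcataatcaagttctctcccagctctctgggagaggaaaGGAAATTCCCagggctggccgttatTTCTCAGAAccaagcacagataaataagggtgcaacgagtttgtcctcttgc
Gbp7, chr3:142530086-142530335: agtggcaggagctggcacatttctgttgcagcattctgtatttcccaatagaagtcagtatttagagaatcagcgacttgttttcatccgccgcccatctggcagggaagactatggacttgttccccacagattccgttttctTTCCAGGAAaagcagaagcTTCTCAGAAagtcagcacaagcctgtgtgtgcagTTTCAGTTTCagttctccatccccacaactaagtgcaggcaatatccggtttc
Gbp3, chr3:142559794-142560043: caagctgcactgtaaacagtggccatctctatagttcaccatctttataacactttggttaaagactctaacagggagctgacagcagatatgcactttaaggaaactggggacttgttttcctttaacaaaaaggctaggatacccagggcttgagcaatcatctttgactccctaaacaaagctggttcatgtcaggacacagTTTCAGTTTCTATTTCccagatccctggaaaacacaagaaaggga
Gbp2, chr3:142620413-142620662: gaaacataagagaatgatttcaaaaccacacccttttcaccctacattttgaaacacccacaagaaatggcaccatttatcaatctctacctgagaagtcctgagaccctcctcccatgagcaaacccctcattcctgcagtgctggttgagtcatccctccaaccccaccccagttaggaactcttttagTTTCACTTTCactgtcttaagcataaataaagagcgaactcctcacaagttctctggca
All 4 windows held an ISRE match, and each match read TTTC, 2 bases, TTTC on the plus strand. Its first base lay at -165 in Gbp5, at -53 in Gbp7, at -45 and -39 in Gbp3 (overlapping matches) and at -59 in Gbp2. Of 32851 mouse promoter windows of the same length, 2.98% held this motif. Gbp5 also held GAS matches at -245 and -52 and a κB match at -77, and Gbp7 held GAS matches at -106 and -87. GAS matches were found in 7.02% of the windows and κB matches in 7.25%. Starts differ between annotations, most for Gbp5, whose RefSeq window lies inside the GENCODE gene. RefSeq lists another start for Gbp3, whose window (chr3:142560106-142560355) held no match to these letters. The matches are descriptions of sequence, and binding was not measured. Gbp4, Gbp6, Gbp8, Gbp9 and Gbp11 had no entry in the promoter table.

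Values are normalized counts, that is, read counts that the authors divided by 1 factor per library and rounded. The spacing of the values implied 16725738 to 26179883 counted reads per library. Normalized totals ran from 17152972 to 17709731 in control cells, 17440329 to 17444102 with oxLDL, 22590678 to 26384551 with LPS and 22071853 to 23346854 with oxLDL+LPS, so scaling matters for comparisons with LPS. Macrophage markers (Adgre1, Csf1r, Cd68, Itgam, Mertk and Lyz2) summed to between 230307 and 318582 in every library. T cell markers summed to 9 to 11 in control cells, 5 to 11 with oxLDL, 10 to 14 with LPS and 2 to 5 with oxLDL+LPS, so the last pair of groups did not overlap. NK cell markers summed to 3 to 6 without LPS and to 0 to 2 with it, and B cell markers to 38 to 83. Neutrophil markers summed to 31 to 49 without LPS, 74 to 178 with LPS and 118 to 249 with oxLDL+LPS, with Ly6g at 0 in every library, and the part of these markers in the differences between groups was not tested. Markers of mesothelial cells and fibroblasts summed to 2381 to 15240 and varied as much within groups as between them. In bulk RNA, fewer cells of a type and less RNA per cell cannot be told apart.

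Read sharing with paralogs or with other genes annotated on the same bases limits some members. Reads were 150 bases long. Windows of 150 bases along 1 transcript per gene, not along all its exons, were searched for exact matches in transcripts of other genes. Of these windows, 76.5% in Gbp6 also occurred in another annotated gene (Gm43302, and Gbp10 in part), against 8.93% in Gbp7 (Gm43802), 0.0787% in Gbp11 and 0.0456% in Gbp4. Gbp2, Gbp3, Gbp5, Gbp8 and Gbp9 had no shared window. Part of this sharing is overlap on the genome. Of the exon bases of Gbp6, 29.0% lay inside exons of Gm43302, and of those of Gbp7, 11.35% lay inside exons of Gm43802. The Gbp6 values are therefore uncertain as values of 1 gene. Gbp8, Gbp9 and Gbp4 overlap on the genome, but at most 1.77% of the exon bases of any of the 3 lay inside exons of another gene.

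LPS raised every member. In control PMφs the 9 rows summed to 671, 880 and 806 normalized counts, which was 0.00391% to 0.00507% of a library. After LPS they summed to 146395, 177029 and 207619, or 0.648% to 0.787%. All 9 rose with LPS (limma, Benjamini-Hochberg adjusted p under 0.1), where 31.4% of the 13023 genes tested were called higher. The members' median log2 fold change was 7.37, and that of all genes tested was -0.00. Gbp4, Gbp8 and Gbp11 passed the filter on low values (at least 10 in at least 3 libraries) only through their LPS libraries, and over the 6 members with at least 10 in every library the median was 7.43.

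Gbp5, which promotes inflammasome assembly, rose most. It was listed at 29, 37 and 32 normalized counts in control cells and at 48974, 54021 and 81540 after LPS. The groups were far apart, and the log2 fold change was 10.81 (SE 0.19, adjusted p = 7.39e-08). Gbp2, which coats pathogen vacuoles, had the highest mean level per length of the family: its control libraries held 237, 354 and 272 and its LPS libraries 43130, 55814 and 55769 (log2 fold change 7.49, SE 0.17, adjusted p = 1.21e-07). Gbp3 stood at 212, 222 and 290 without LPS and at 27059, 33451 and 34364 with it, a log2 fold change of 7.03 (SE 0.15). For Gbp7, 98, 117 and 99 in control cells compared with 14146, 19634 and 18976 after LPS, a log2 fold change of 7.37 (SE 0.15). Of this cluster, 3 genes thus lay close together and Gbp5 stood apart.

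The chromosome 5 cluster was less uniform. Gbp6 went from 24, 47 and 28 to 7048, 8941 and 9608 (log2 fold change 8.02, SE 0.24), with the read sharing given above. Gbp4 was close to 0 in control cells, at 8, 3 and 3, and reached 1841, 1315 and 2289 after LPS. Its log2 fold change was 8.40 (SE 0.36) and fell to 6.94 with 10 instead of 1 added to each value. Gbp9 began at 57, 90 and 75 and reached 4115, 3757 and 5008, with a log2 fold change of 5.85 (SE 0.18). Gbp8 showed a far smaller difference than its neighbours, from 6, 10 and 7 to 69, 64 and 51 (log2 fold change 2.86, SE 0.30, adjusted p = 1.25e-04). Gbp11 was listed at 0 in all 6 libraries without LPS and at 13, 32 and 14 after LPS, so no fold is given for it. It passed the limma test at an adjusted p of 3.90e-04, but it was tested only through its LPS libraries. No LPS library overlapped a control library for Gbp2, Gbp3, Gbp5, Gbp6, Gbp7 or Gbp9, and 32.1% of all genes tested were separated in this direction. Gbp4, Gbp8 and Gbp11 did not overlap either, but they passed the filter only through LPS libraries. For Gbp4 and Gbp11 the filter fixed this outcome in advance.

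**Figure D1:**
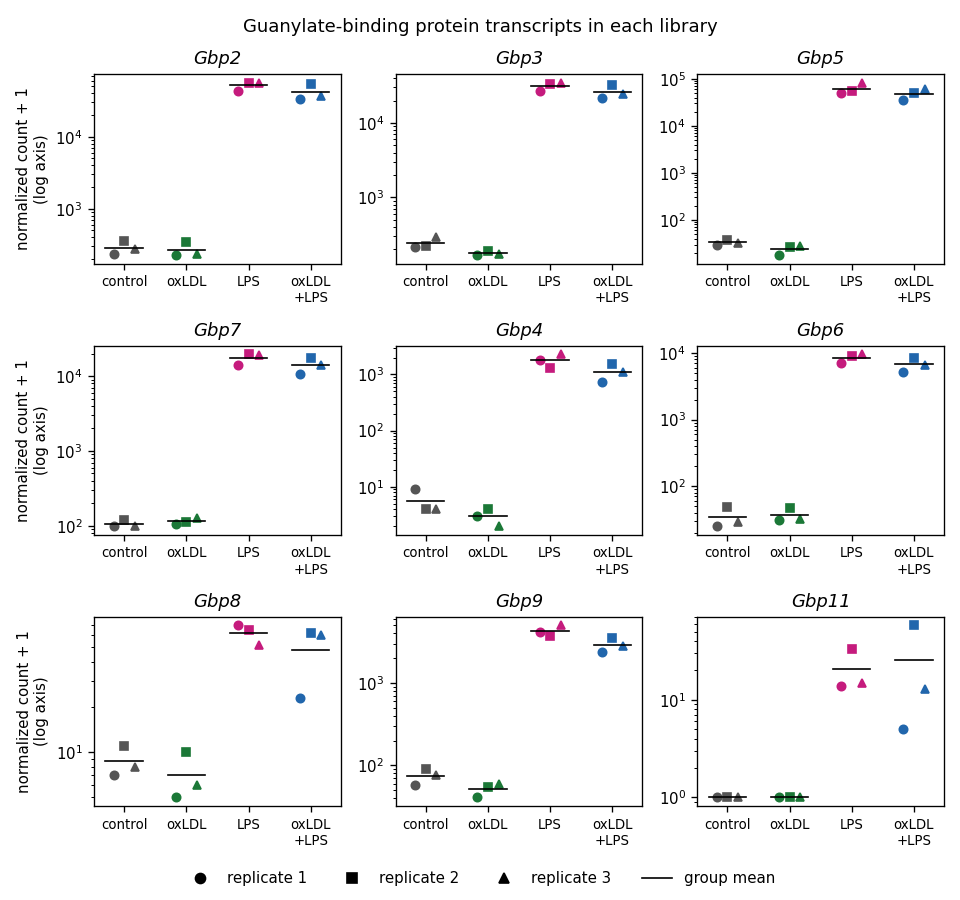
Normalized counts of the 9 GBP genes in the 12 libraries, plus 1 on a log axis, with a panel per gene, a point per library (the shape gives the replicate number) and a line at each group mean. The libraries with LPS lie far above those without it in every panel, by the least in Gbp8 and Gbp11, and the LPS and oxLDL+LPS points overlap in every panel but that of Gbp9.

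Levels per kilobase of exon allow comparison between genes. In control cells the order was Gbp2 (114 ± 23.9 normalized counts per kilobase, SD, n = 3), Gbp3 (73.9 ± 13.0), Gbp7 (18.6 ± 1.90), Gbp9 (14.3 ± 3.19), Gbp6 (5.54 ± 2.06), Gbp5 (4.92 ± 0.609), Gbp8 (2.23 ± 0.605), Gbp4 (0.623 ± 0.385) and Gbp11 at 0. Gbp6 and Gbp5 overlapped there. After LPS it was Gbp2 (20497 ± 2905), Gbp3 (9686 ± 1219), Gbp5 (9268 ± 2641), Gbp7 (3132 ± 534), Gbp6 (1433 ± 223), Gbp9 (830 ± 125), Gbp4 (242 ± 65.1), Gbp8 (17.8 ± 2.70) and Gbp11 (7.31 ± 3.97). Gbp5 moved from 6th to 3rd, and its LPS libraries overlapped those of Gbp3. The length used matters for some neighbours: per kilobase of 1 transcript per gene, Gbp5 stood at 20135 after LPS and Gbp3 at 11791, and Gbp6 (3277) came before Gbp7 (3132). Gbp2 had the highest mean under both lengths, but per kilobase of transcript its LPS values (20497 ± 2905) overlapped those of Gbp5 (20135 ± 5737).

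**Figure D2:**
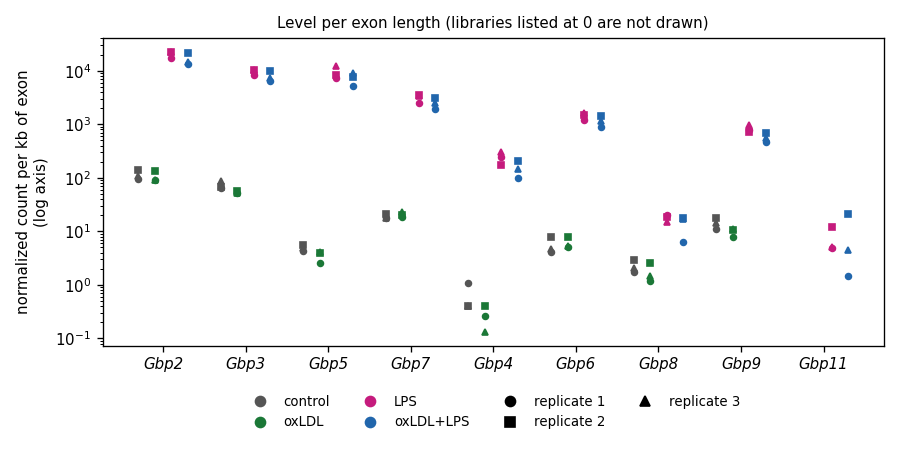
Normalized count per kilobase of exon of each GBP gene on a log axis, with a point per library, coloured by group, and libraries listed at 0 not drawn. Gbp2 lies highest in each of the 4 groups, and Gbp5 changes rank most, from 6th in control cells to 3rd with LPS.

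**Figure D3:**
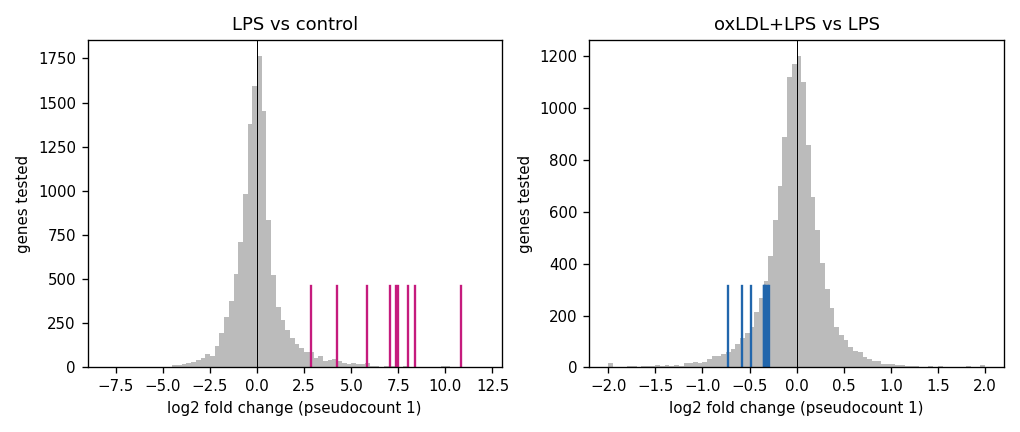
Histograms of the log2 fold changes of all genes tested for LPS against control and for oxLDL+LPS against LPS, with the GBP genes marked as vertical lines; genes beyond the ends of the axis are counted in the outermost bars. The members lie to the right for LPS, with a median of 7.37 and Gbp8 lowest at 2.86. They lie slightly left of the centre for oxLDL+LPS against LPS, with a median of -0.35. Gbp4, Gbp8 and Gbp11 are drawn and counted for LPS although they passed the filter only through their LPS libraries.

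LPS also raised the family in oxLDL-loaded cells. The 9 rows summed to 592, 780 and 654 with oxLDL and to 108864, 167791 and 145572 with oxLDL+LPS. Of the 9 members 8 passed the filter on low values and these rose (limma, adjusted p under 0.1), where 28.2% of 12900 genes were called higher. Gbp4 and Gbp8 passed only through their oxLDL+LPS libraries, and the median log2 fold change over the other 6 was 7.22. Gbp5 stood at 17, 26 and 27 with oxLDL and at 34658, 50741 and 59850 with oxLDL+LPS, a log2 fold change of 10.95. The other log2 fold changes were 8.54 for Gbp4, 7.54 for Gbp6, 7.28 for Gbp2, 7.17 for Gbp3, 6.89 for Gbp7, 5.81 for Gbp9 and 2.72 for Gbp8. Gbp11 was listed at 0 in the oxLDL libraries and at 4, 57 and 12 with both agents, and it did not pass the filter. This comparison shares its oxLDL+LPS libraries with the next one.

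With oxLDL alone the family stayed at the low levels of resting cells, and none of the 6 members tested was called by limma. Gbp4, Gbp8 and Gbp11 were too low to be tested. No gene among the 12751 tested was called either (0% called), and 381 had an unadjusted p under 0.05. Gbp3, at 212, 222 and 290 in control cells, was listed at 168, 187 and 173 with oxLDL. Every oxLDL library lay below every control library, and the log2 difference was -0.44 (limma, unadjusted p = 0.0158, adjusted p = 1). Gbp5 showed the same order of groups, with a log2 difference of -0.49 (SE 0.26), and 3.91% of all genes tested were separated in this direction. Gbp9 held 40, 54 and 58 with oxLDL, below its own pool's control each time, with a log2 difference of -0.53. Gbp2, Gbp3 and Gbp5 were also lower in all 3 pools, as were 19.4% of all genes tested. Values for Gbp2 (-0.11), Gbp6 (0.14) and Gbp7 (0.13) were small and their groups overlapped. The median over the 6 members tested was -0.28 and that of all genes -0.01. With the replicate number as a block, which compares libraries of 1 pool, Gbp3 alone was called lower (adjusted p = 0.0592), where 2.92% of genes were called lower. That call was lost without pool 1 (adjusted p = 0.160, 1.00% of genes called lower), without pool 2 (0.130, 0.631%) and without pool 3 (0.116, 6.05%). In the last fit Gbp9 was called instead (0.0436), with p-values that rest mainly on the variance of other genes. At equal totals the block again called Gbp3 (adjusted p = 0.0429), where 3.63% of genes were called lower.

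oxLDL loading before LPS gave a negative mean log2 difference for each of the 9 members, although the plain mean of Gbp11 was higher (listed at 4, 57 and 12, against 13, 32 and 14 with LPS). Without the pairing, the 2 groups of libraries overlapped for every member but Gbp9. The summed rows of oxLDL+LPS cells were 0.744, 0.948 and 0.701 times those of the LPS cells of the same pool, in the order of the replicate numbers. Pool 2 therefore showed little difference. The log2 difference of the summed rows was -0.34. An exact permutation test that ignores the pools gave p = 0.2 (two-sided), and it cannot go under 0.1 with 3 libraries against 3. No member was called by limma, and 0 of 12786 genes were (0% called, with 890 at an unadjusted p under 0.05). The members' median log2 difference was -0.35 and that of all genes -0.01. It was -0.17 without replicate 1 and -0.54 without replicate 2 of the oxLDL+LPS libraries.

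Gbp9 was the only member whose groups did not overlap. Its LPS libraries held 4115, 3757 and 5008 and its oxLDL+LPS libraries 2385, 3483 and 2805, a log2 difference of -0.58 (SE 0.17, unadjusted p = 0.0113, adjusted p = 0.698). Across all genes tested, 6.39% were separated in this direction. Gbp4, at 728, 1519 and 1111 with oxLDL+LPS, gave a log2 difference of -0.72 (unadjusted p = 0.0458), but its pool 2 value lay above that of LPS alone. Gbp2 held 33836, 54334 and 36895 with oxLDL+LPS, which was 78.5%, 97.3% and 66.2% of LPS alone in the same pools. Gbp3, at 21328, 31836 and 24222, stood at 78.8%, 95.2% and 70.5%. Gbp5, Gbp6 and Gbp7 were also below their LPS partner in all 3 pools, with log2 differences of -0.35, -0.34 and -0.35. So 6 members were lower in every pool (Gbp2, Gbp3, Gbp5, Gbp6, Gbp7 and Gbp9), where 24.4% of all genes tested were. Gbp8 (22, 61 and 59 with oxLDL+LPS) and Gbp11 were low and differed in sign between pools.

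With the replicate number as a block, 4 of the 9 members were called lower, where 8.74% of genes were. The calls were Gbp9 (adjusted p = 0.0326), Gbp7 (0.0665), Gbp6 (0.0730) and Gbp4 (0.0925). Gbp3 (0.166), Gbp5 (0.187), Gbp2 (0.212), Gbp8 (0.391) and Gbp11 (0.733) were not called. The calls depended on the pools. Without pool 2 the blocked fit called 8 members and 15.0% of all genes lower. Those calls rest mainly on the variance of other genes, because 2 pools leave few residual degrees of freedom. Without pool 1 it called 0 members and 0.481% of genes, and without pool 3 it called 0 members and 0% of genes. With libraries scaled to equal totals it called 2 members (Gbp7 and Gbp9) and 4.61% of genes lower, and the median of all genes moved to 0.08. The members' log2 differences moved toward 0 as well, to between -0.63 (Gbp4) and -0.20 (Gbp11), against -0.72 and -0.29 in the main fit.

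**Figure D4:**
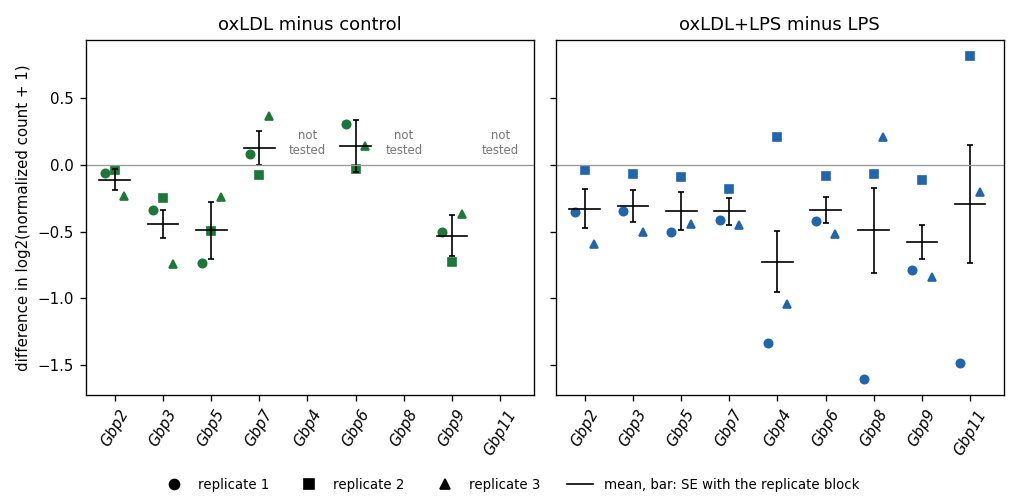
Log2 difference between oxLDL-loaded cells and unloaded cells of the same pool for each GBP gene, without LPS (left, oxLDL against control, members tested only) and with LPS (right, oxLDL+LPS against LPS), with a point per replicate number, a line at the mean and a bar for the SE from the blocked fit. With LPS the medians of pools 1 and 3 are -0.50 and -0.50, and that of pool 2 is -0.07, which leaves the square symbols nearest to 0 in most genes.

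Whether oxLDL acted differently with and without LPS was tested as an interaction over all 12 libraries. No member passed, with or without the block, and neither did any of 13482 genes (0% called, with 418 genes at an unadjusted p under 0.05 in limma without the block and 967 with it). Members' log2 values lay between -0.48 (Gbp6) and 0.14 (Gbp5), with a median of -0.14, which is the value of Gbp8. Gbp4, Gbp8 and Gbp11 passed the filter on low values only through libraries with LPS, so their oxLDL effect without LPS was hardly measured. Gbp11 was listed at 0 without LPS, so its value (-0.29) is that of oxLDL+LPS against LPS. A different oxLDL effect after LPS was not detectable for any other member.

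The genes that act with GBPs were described by role, from a list of 45 of which 44 had a row. Interferon ligands were scarce. Ifng, which encodes interferon-γ, was listed at 0 without LPS, at 12, 14 and 6 with LPS and at 1, 10 and 9 with oxLDL+LPS. Ifnb1, which encodes interferon-β, was listed at 0 without LPS, at 8, 5 and 13 with LPS and at 4, 2 and 8 with both agents.

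Of the pathway genes, 42 were tested for LPS against control, and 32 rose and 5 fell, where 31.4% of all genes were called higher and 30.3% lower. Among the transcription factors 7 of 8 rose, among them Irf7 with a log2 fold change of 6.77 and Irf1 with 5.11, while Irf8 was not called (0.15). All 3 inhibitors of interferon signalling rose, namely Usp18 (7.11), Socs3 (6.50) and Socs1 (6.23). All 8 interferon-inducible GTPases outside the Gbp family rose, among them Tgtp2 (8.57), Ifi47 (6.82) and Igtp (5.38). Iigp1 and Tgtp1 are counted here although they passed the filter on low values only through their LPS libraries. The IRG genes Tgtp1 and Tgtp2 are near-identical copies and their values are uncertain. The conjugation genes were split, with Atg3 (0.66) and Atg16l1 (0.87) higher and Atg7 (-1.47), Atg12 (-0.59) and Atg5 (-0.24) lower. All 5 inflammasome partners rose, including Casp4 (4.56), the receptor for cytosolic LPS, and Nlrp3 (5.86). Of the receptors, Ifnar1 (1.73), Ifnar2 (1.65) and Ifngr2 (0.37) rose and Ifngr1 fell (-0.57). Among the 5 prenylation enzymes, Pggt1b rose (0.64) and Icmt fell (-0.27).

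For oxLDL+LPS against LPS, 0 of 43 pathway genes were called, where 0% of all genes were. Their log2 differences were negative in 32 of 43, with a median of -0.21, beside -0.35 over the GBP genes. All 8 transcription factors, all 3 inhibitors and all 8 GTPases had negative values, which ranged from Socs3 (-1.18) to Irf2 (-0.03). With the block 10 were called lower and 1 higher, where 8.74% and 4.42% of all genes were. The lower calls were Socs3, Socs1, Irf8, Batf2, Ifnar1, Jak2, Iigp1, Tgtp2, Aim2 and Nlrp3, and the higher call was Atg5 (0.32, adjusted p = 0.0468). Socs3, an inhibitor of cytokine signalling, went from 15661, 11034 and 16698 to 6653, 6834 and 5467, lower in all 3 pools (adjusted p with the block 0.00559). For oxLDL against control 0 of 40 were called, where 0% of all genes were. With the block Stat2 alone was called (-0.25, adjusted p = 0.0281), where 2.92% of all genes were called lower.

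Genes outside the family with the profile most like the mean of the 9 members were ranked by the root mean square difference of centred log2 values over the 12 libraries, among 13482 genes. These were Zbp1 (0.223), Usp18 (0.225), Irf7 (0.250), Ifi47 (0.326), Cfb (0.328), AA467197 (0.345), H2-M2 (0.389) and Gm12250 (0.406). The members themselves lay between 0.233 (Gbp3) and 2.04 (Gbp5 and Gbp8) from this mean, with Gbp11 at 1.485 and Gbp4 at 0.940. The listed genes are thus not equally like every member. The mean includes Gbp4, Gbp8 and Gbp11, which passed the filter only through libraries with LPS. Zbp1 was listed at 66, 92 and 113 in control cells, 62, 111 and 79 with oxLDL, 7544, 11647 and 11719 with LPS and 6018, 10354 and 7739 with both. For single members, Usp18 was nearest to Gbp2, Gbp3 and Gbp7, Gbp2 was nearest to Gbp6, Clic5 to Gbp9, Irg1 to Gbp5, Nupr1 to Gbp8, Cd69 to Gbp4 and F10 to Gbp11. The distance was 0.205 for Gbp3 and for Gbp9 and 0.558 for Gbp11, the least alike pair. Most of each profile is the difference between libraries with and without LPS.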

How the data were processed

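RNA of 12 cultures was sequenced as poly(A) libraries made with a directional kit. Per the labels and the methods, the authors used Trimmomatic 0.32 for trimming and STAR 2.5.1b for alignment to mm10 (GRCm38), counted exonic reads per GENCODE M4 gene with featureCounts and normalized and compared groups with DESeq2. The deposited values are a signal of whole numbers, namely counts that were scaled by a factor for each library and then rounded. Whether counting used the strand is not given in the sources used here. Factors were read from the spacing of the values, with an error of at most 0.0276% on simulated columns. A spreadsheet had turned 25 symbols into dates, and those rows were assigned to no gene. Because the values are scaled and rounded, count tests were not run. Intervals for counting error were not given because the spread between libraries was used instead.

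Groups were compared with limma 3.58.1 in R 4.3.3 (lmFit, and eBayes with a variance trend) on log2 of the value plus 1. A fold change on this scale understates low genes. Genes were tested where 3 or more of the compared libraries held 10 or more, p-values were Benjamini-Hochberg adjusted over all genes tested, and an adjusted p under 0.1 was a call. The fits were tested on simulated data. The main fits had no block. Same-numbered libraries were taken to come from 1 pool of animals, which the labels do not state. Their deviations from the group means correlated at 0.266 to 0.657 over 13482 genes. Fits with the replicate number as a block therefore stand beside the results they change. P-values of the main fits rest on the spread between the 3 libraries of each group. Those of the blocked fits rest on the spread left after the replicate number is taken out. Both are moderated by the variance trend over all genes. Named genes were the members and a list by role, with called genes named by role, and the 8 genes nearest to the mean member profile. Members and lists were chosen with earlier results of these data known. Exon lengths, shared 150-base windows and positions come from GENCODE M21 on GRCm38, not the authors' release. Promoters come from RefSeq (GRCm38.p6), and the 5 chromosome 5 members were not in that table. Protein sequences were not used here, and values of 1 gene of the list by role are not reported here. Alternatives were no filter, a filter in every library, a pseudocount of 10, equal totals, equal upper quartiles, all 12 libraries in 1 fit, the block and leaving out each library.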

Additional observations from a re-analysis of the deposited data

How the results depend on the processing

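All 137 alternative values of members for LPS against control and all 122 for oxLDL+LPS against oxLDL kept their direction and their call. Their medians moved with the scaling, which shifts the median of all genes tested to -0.48 and -0.41 at equal totals. For LPS against control the median over members was 6.98 with a pseudocount of 10, 6.89 at equal totals (with and without the block) and 7.13 at equal upper quartiles. For oxLDL+LPS against oxLDL it was 6.94, 6.83 and 7.01 under the same settings, and 7.04 to 7.35 with 1 library left out. For LPS against control, Gbp4 and Gbp11 had no value with an LPS library left out, and Gbp8 had none in the blocked fit without replicate 2. For oxLDL+LPS against oxLDL, Gbp4 and Gbp8 had none with an oxLDL+LPS library left out, and Gbp11 was not tested in the main fit. None of these members had a value where every library needed at least 10.

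The replicate block, which pairs libraries of 1 pool, changed calls of members in the oxLDL comparisons and in no other. For oxLDL against control it called 1 member (Gbp3, also the 1 at equal totals), 0 without replicate 1 or 2 and 1 without replicate 3 (Gbp9), where the median was -0.17. The median was -0.39 with no filter, -0.24 with a pseudocount of 10 and -0.40 to -0.15 with 1 library left out. Leaving out 1 library took Gbp2 from -0.31 to 0.047 and Gbp6 from -0.052 to 0.42. For oxLDL+LPS against LPS the block called 4 members, 8 without replicate 2 and 2 at equal totals, a setting chosen after seeing the data. Blocked fits on 2 pools have few residual degrees of freedom, and their p-values rest mainly on the variance trend over all genes. In limma with the block the smallest adjusted p over all genes was 2.08e-116 for oxLDL against control without replicate 3. It was 2.49e-195 for oxLDL+LPS against LPS without replicate 2. The Gbp9 call and the 8 calls in those fits are therefore uncertain. The median over members ran from -0.54 to -0.17 with 1 library left out. Gbp11 ran from -1.24 to 0.53 with 1 library left out, and without replicate 1 the block gave 0.30 for it and 0.069 for Gbp8.

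No interaction of a member was called in any setting, and 25 of 195 values of members changed sign. Gbp4 gave -0.44 with a pseudocount of 10, and Gbp9 gave 0.048 at equal totals with and without the block. Blocked fits gave 0.35 for Gbp8, 0.073 for Gbp9 and 0.30 for Gbp11 without replicate 1, and 0.17 for Gbp9 without replicate 3. With 1 library left out, values ran from -0.028 to 0.26 for Gbp3, -0.25 to 0.42 for Gbp4, -0.060 to 0.37 for Gbp5, -0.39 to 0.33 for Gbp8, -0.20 to 0.13 for Gbp9 and -1.24 to 0.53 for Gbp11, and the median reached 0.26. The cause of these changes was not tested. Depth limits Gbp4, Gbp8 and Gbp11, which had at most 10 normalized counts in any library without LPS.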
